A study of Mus musculus with 2 samples.

Results

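A processed pseudogene is a copy of a gene's mature transcript that was written back into the genome, so that it carries the joined exons of its parent without the introns, usually at a distant place. Most such copies lack the parent's promoter and gather mutations. The genes that have left most copies are abundantly transcribed housekeeping genes, among them those of ribosomal proteins and of the glycolytic enzyme Gapdh. A read from such a copy and a read from its parent differ only where the copy has mutated, and, in a genome alignment, in the absence or presence of introns.

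The genes described here were chosen by their annotated type (processed pseudogene or transcribed processed pseudogene in the deposited annotations) and by their read counts, at 10 or more reads summed over both libraries. This gave 171 pseudogenes, of 568 of these types with at least 1 read and of 10237 in the GENCODE M21 annotation. They stood among 8692 annotated genes of any type with 10 or more reads. Of the 171, 152 were annotated as processed pseudogenes and 19 as transcribed processed pseudogenes. The libraries were long-read RNA libraries of the gastrocnemius, a calf muscle, from male mice aged 25 days of the F1 strain B6CASTF1/J, whose genomes come from C57BL/6J and CAST/EiJ. There was 1 group of 2 biological replicates, with 2 µg of total RNA in each library and no treatment. The labels describe separate animals of a single donor record.

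Replicate 1 held 1215785 reads in annotated genes and replicate 2 held 1549606. Each level below is a CPM value, meaning reads of that gene scaled to 1000000 gene reads in its library. A long read stands for a single cDNA molecule, so reads were not divided by length. Where no read was found, the limit is 2.47 CPM for replicate 1 and 1.94 CPM for replicate 2 (3 counts). Intervals below are exact 95% Clopper-Pearson intervals, and limits and intervals cover counting error only. All 8 muscle markers, such as Acta1 and Ckm, were found in both libraries, and the 2 liver markers had no read in either. The 8 muscle markers summed to 367810 CPM in replicate 1, against 257080 in replicate 2, the 5 fibroblast markers to 4567 against 899.6, and the 4 endothelial markers to 43.6 against 20.7. The 4 Schwann cell markers summed to 62.5 CPM in replicate 1, against 311.7 in replicate 2, the 5 blood and immune markers, of which 4 were found in each library, to 364 against 547, and the 3 adipocyte markers to 18.9 against 18.1. In whole tissue, a difference in the number of cells of a type and a difference in RNA per cell cannot be told apart.

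The 171 pseudogenes together took 12865 reads, or 1.06% of gene reads, in replicate 1 (interval 1.04% to 1.08%) and 22758 reads, or 1.47%, in replicate 2 (1.45% to 1.49%). The mean was 1.26% ± 0.29 (SD, n = 2). Of the 171, 164 had reads in both libraries. Counts were spread very unevenly: 54 pseudogenes had 100 or more reads over both libraries, 15 had 500 or more, and 8 had 1000 or more. The 4 with most reads, all of them copies of Gapdh, held 47.9% of the pseudogene reads in replicate 1 and 21.4% in replicate 2. At the lower edge, 11 pseudogenes had exactly 10 reads and 8 of the same gene types had 9, while 216 had a single read. The number of reads chose these genes, so the counts describe them and are no test.

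**Figure D1:**
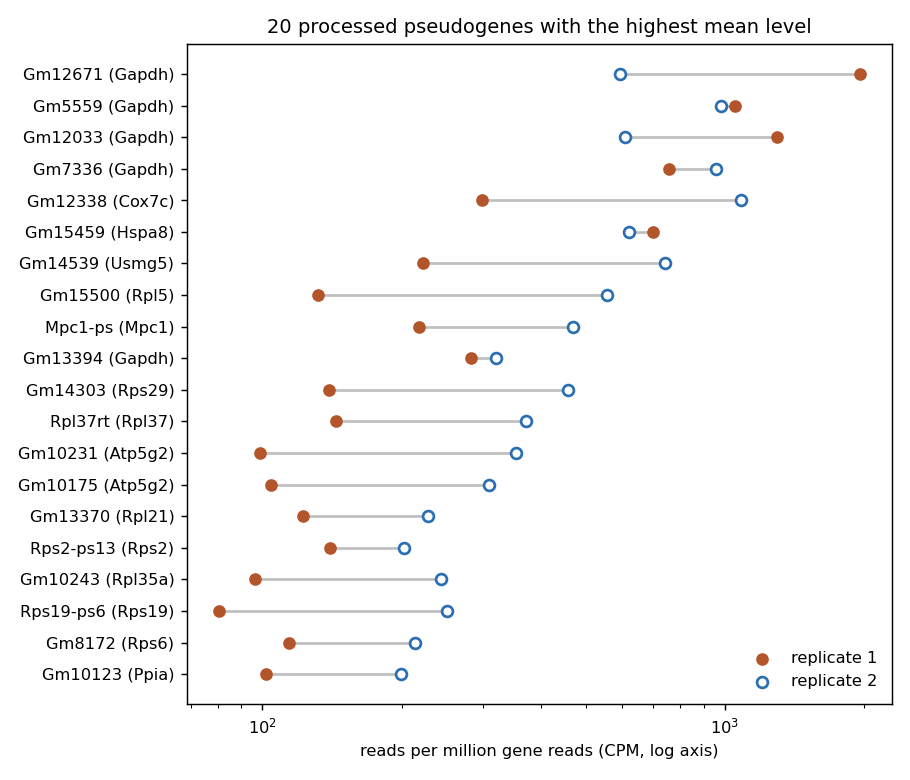
Level of the 20 processed pseudogenes with the highest mean CPM, with the parent found by sequence in brackets. The horizontal axis is CPM on a log scale, filled points are replicate 1 and open points replicate 2; Gm12671 stands at 1963 and 593 CPM, and 16 of the 20 stand lower in replicate 1.

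The pseudogene reads lay on unspliced, annotated models. Reads on an annotated model made up 99.6% of pseudogene reads in replicate 1 and 98.6% in replicate 2, against 65.6% and 70.6% of the reads of protein-coding genes. Reads on models of 1 exon made up 99.4% in replicate 1 and 98.5% in replicate 2, against 3.72% and 12.1% of the reads of protein-coding genes. In 139 of the 171 every read lay on a single-exon model. The annotation itself gives 167 of the 171 a single-exon model, and 89.7% of the other 10066 annotated processed pseudogenes have 1 exon too. All but 1 pseudogene had every read on a model that overlapped its annotated span on the same strand. An annotated model of the gene was counted as overlapping by definition, so only reads on other models could fall outside.

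Spliced reads were concentrated in a few pseudogenes. Gm6829, on chromosome X and closest to Golga7 (a partner of the Ras palmitoyltransferase), had 0 reads in replicate 1 and 185 in replicate 2, all on models of 2 or more exons. Of these 185 reads, 183 belonged to incomplete splice matches that lay outside the annotated span, so its count does not measure the annotated copy. Ppp1ccb, a copy of the gene of the protein phosphatase 1 catalytic subunit gamma (Ppp1cc), had 19 of 62 reads on multi-exon models in replicate 1 and 22 of 55 in replicate 2. Gm13292, a Gapdh copy, had 13 of 18 and 31 of 40. These are the 3 with most multi-exon reads, followed by Gm1821, a copy of the ubiquitin gene Ubb, and 2810025M15Rik.

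Most of the 171 were nearly identical to a protein-coding transcript, which the choice did not use. Each pseudogene was aligned with BLAST to all protein-coding transcripts of GENCODE M21. The median identity of the 171 to the closest transcript was 99.7%, with 142 at 99% or more and 46 identical over the aligned length. Among the other 10066 annotated processed pseudogenes, 9533 aligned, with a median identity of 88.8%, and 451 reached 99%. The 397 pseudogenes with 1 to 9 reads lay between, with quartiles of 93.3% and 99.2%. The median model length was 538 bases for the 171 and 536 bases for the others.

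The share of copies that reached 10 reads fell steeply with divergence. Among copies aligned over at least 90% of their length, it was 31.5% of the 146 identical to a coding transcript (46 copies; interval 24.1% to 39.7%). It was 22.2% of the 424 with 99% to under 100% identity (94 copies; 18.3% to 26.4%), and 3.52% of the 426 with 98% to under 99% (15 copies; 1.98% to 5.74%). Below that it was 0.657% of 1218 copies with 95% to under 98%, 0.105% of 1906 with 90% to under 95%, and 0.0246% of 4073 under 90%. The intervals of the classes from 99%, 98% and 95% upward did not overlap each other, while those of the identical copies and of the copies at 99% to under 100% did. Copies of 1 parent share sequence, so they are not independent.

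Detection also went with the reads of the parent: the closest gene had 100 or more reads for 80.1% of the 171 and for 48.9% of the others. Among copies whose closest gene had 100 or more reads over both libraries, 54.8% of 73 identical copies reached 10 reads (interval 42.7% to 66.5%), and 34.3% of 210 copies with 99% to under 100% identity did (27.9% to 41.1%). For the part of these whose closest gene had 1000 or more reads, it was 43.8% of 16 identical copies (19.8% to 70.1%). At 99% to under 100% identity it was 54.5% of 22 copies (32.2% to 75.6%), so the order of the identity classes was not kept there. Among copies whose closest gene had under 10 reads, none of 29 identical copies and none of 67 with 99% to under 100% identity reached 10 reads, with upper limits of 11.9% and 5.36%. With a parent of 100 or more reads, 33 of the 73 identical copies stayed under 10 reads, and 15 of them had no read at all. An open frame from start codon to stop codon over the whole model was present in 84 of the 171 (49.1%) and in 478 of the other 10066 (4.75%). How far an open frame and identity depend on each other was not tested.

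**Figure D2:**
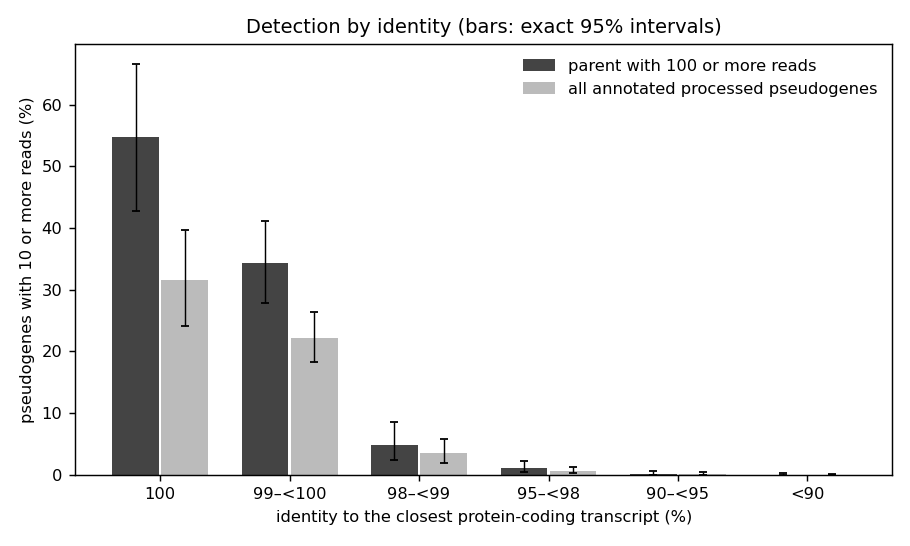
Share of annotated processed pseudogenes with 10 or more reads over both libraries (vertical axis, %) by identity to the closest protein-coding transcript (horizontal axis, %). Dark bars are copies whose closest gene had 100 or more reads, light bars all copies, and whiskers exact 95% intervals; the share is 54.8% and 31.5% for identical copies and at most 4.89% in the classes below 99%.

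A protein-coding parent was found by sequence for 165 of the 171 (identity of 90% or more over at least 50% of the model, with no tie), and these 165 came from 126 parents. The symbol itself names a parent for 56, and where both routes gave a parent, 54 of 55 agreed. All 165 sequence parents have 2 or more exons, and 156 of the 165 pairs lie on different chromosomes. Most parents, 108 of 126, had a single copy with 10 or more reads, 13 had 2 copies, and 5 had 3 or more. Gapdh, with 14, had most, and Rpl35a followed with 5.

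Gapdh, the enzyme that oxidises glyceraldehyde 3-phosphate in glycolysis, is very abundant in fast muscle. In these tables the gene Gapdh on chromosome 6 had 54 reads in replicate 1 and 113 in replicate 2. Its 14 copies with 10 or more reads had 6618 reads in replicate 1 and 5576 in replicate 2. Copies therefore held 99.2% of copy plus parent reads in replicate 1 (interval 98.9% to 99.4%) and 98.01% in replicate 2 (97.6% to 98.4%), a ratio of copies to parent of 123 and 49.3. Only 1 of the 14, Gapdh-ps15 on chromosome Y, is named for its parent; it had 11 reads in replicate 1 and 62 in replicate 2, against the 54 and 113 reads of Gapdh. The sources used here do not say how reads of copies and parent were told apart at alignment. Whether copy reads were transcribed from the copy or from Gapdh was not tested.

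Reads were shared unequally among the Gapdh copies, also among those whose models differ from the coding sequence of Gapdh by 1 base or by none. Gm12671 (mm10 chr4:91851668-91852669, minus strand), identical to the coding sequence of Gapdh, had 2386 reads in replicate 1 and 919 in replicate 2. Gm5559 (chr5:95861714-95862715, plus strand) had 1277 and 1519 reads. Gm12033 (chr11:20335012-20336013, minus strand) had 1579 and 941 reads. Gm7336 (chr7:51746647-51747878, plus strand), whose aligned differences from Gapdh all lie outside the coding part, had 922 and 1485 reads. These 4 copies held 6164 of the 6618 copy reads in replicate 1 and 4864 of 5576 in replicate 2, and Gm13394 followed with 344 and 496. The remaining 9 copies had between 10 and 82 reads each over both libraries. Among them, Gapdh-ps15 and Gm13292 differ from Gapdh by 5 substitutions, Gm10284 by 7, Gm10481 by 9, and Gm2546 by 10 and a gap.

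The 3 Gapdh copies below have the most reads among those that differ from the coding sequence of Gapdh by 1 substitution. Gm2606, Gm14760 and Gm12537 also differ by 1 substitution, with 82, 26 and 11 reads over both libraries, and are not shown. The capital letter marks the differing base in the copy and the matching base in Gapdh, and positions count from 1 at the first base of the copy, where the parent's base stands first. Gm5559 carries T385A, Gm12033 carries T504C and Gm13394 carries A346C. The windows are read 5′ to 3′ on the transcribed strand of GENCODE M21 (mm10).
Gm5559: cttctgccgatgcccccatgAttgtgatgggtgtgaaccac
Gapdh at Gm5559: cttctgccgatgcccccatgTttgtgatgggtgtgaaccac
Gm12033: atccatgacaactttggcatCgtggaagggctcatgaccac
Gapdh at Gm12033: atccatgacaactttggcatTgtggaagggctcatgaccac
Gm13394: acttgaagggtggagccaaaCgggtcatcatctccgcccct
Gapdh at Gm13394: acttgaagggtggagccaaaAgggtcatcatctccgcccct

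The division of reads among the Gapdh copies differed between the libraries. Gm12671 held 36.1% of the copy reads in replicate 1 and 16.5% in replicate 2, Gm12033 23.9% and 16.9%, Gm5559 19.3% and 27.2%, and Gm7336 13.9% and 26.6%. Gm10359 (chr5:105862701-105863702) has the same 1002 letters as Gm12671, and had 30 reads in replicate 1 and 14 in replicate 2. The annotated models of the 1002-base copies hold only the coding part, so differences outside it, where reads can also lie, are not covered by this comparison. Of 233 annotated pseudogenes closest to Gapdh, 26 had any read; both that were identical to Gapdh and 11 of the 20 with 99% to under 100% identity had 10 or more, as did 1 of the 211 others.

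**Figure D3:**
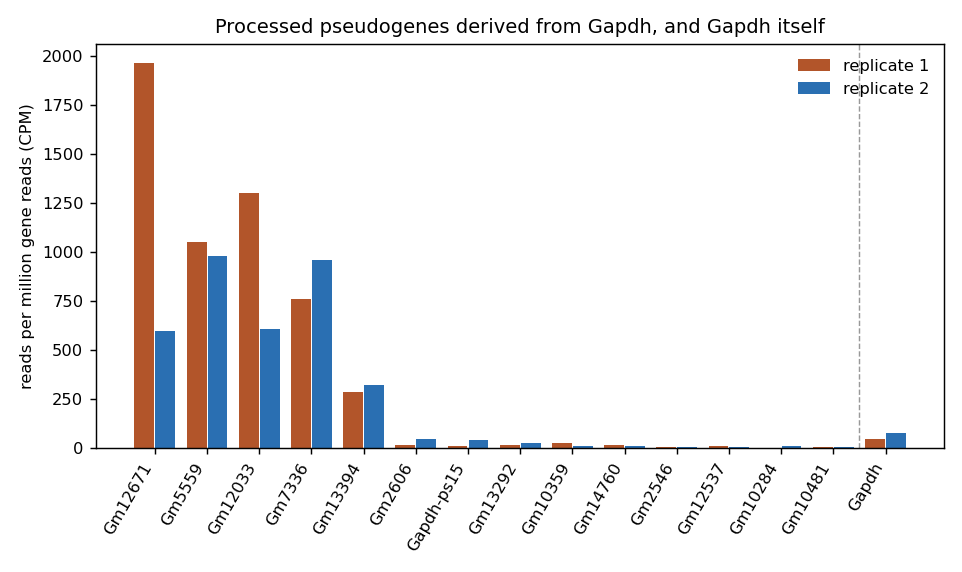
Level (vertical axis, CPM) of the 14 Gapdh-derived processed pseudogenes and, right of the dashed line, of Gapdh. In each pair the left bar is replicate 1 and the right bar replicate 2; Gm12671 stands at 1963 and 593 CPM and Gapdh at 44.4 and 72.9 CPM.

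Copies of ribosomal protein genes formed the most numerous family, with 76 pseudogenes from 53 parents. They took 2505 reads (19.5% of pseudogene reads) in replicate 1 and 7976 reads (35.0%) in replicate 2. Their median share of pair reads was 12.6% in replicate 1 and 19.0% in replicate 2, with single copies having between 10 and 1022 reads over both libraries. Gm15500, a copy of the large-subunit protein gene Rpl5, led with 160 and 862 reads, against 251 and 1299 for Rpl5. Gm14303, identical to part of the small-subunit gene Rps29, had 169 and 710 reads, against 178 and 853 for Rps29.

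For several ribosomal protein genes the copies carried more reads than the parent. Rpl37rt had 175 reads in replicate 1 and 577 in replicate 2, against 116 and 508 for Rpl37, and Gm8172 had 139 and 332, against 113 and 277 for Rps6. The 4 copies of Rpl21, led by Gm13370, summed to 254 and 611 reads, against 20 and 53 for Rpl21, or 92.7% and 92.0% of reads. The 4 copies of Rpl17 summed to 75 and 174 reads, against 3 and 8 for Rpl17, or 96.2% and 95.6%. The copies of Rpl35a held 86.3% and 88.4%. The parents with the highest copy shares had few reads of their own, which widens the intervals (89.2% to 99.2% for Rpl17 in replicate 1).

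The Rpl35a copies include 4 whose models have the same 333 letters. Gm10243 had 117 reads in replicate 1 and 377 in replicate 2, Rpl35a-ps2 had 5 and 69, Rpl35a-ps3 had 13 and 49, and Rpl35a-ps6 had 5 and 8. Besides these and the Gapdh pair, identical models were found for Gm13370 and Gm10240 (149 and 354 reads, against 2 and 17; Rpl21) and for Gm11518 and Rpl27-ps3 (49 and 126 reads, against 35 and 106; Rpl27). In the last pair the counts were close, and in the others 1 copy held most reads. Counts of copies with the same letters cannot be told apart by sequence inside the model.

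In some pairs named by symbol the copy had more reads than the parent in both libraries. Rps19-ps6 had 98 reads in replicate 1 and 389 in replicate 2, against 80 and 356 for Rps19, whose protein is part of the small ribosomal subunit. Rps2-ps13 had 170 and 313 reads, against 125 and 212 for Rps2. Rpl31-ps8 had 86 and 306 reads, against 39 and 171 for Rpl31. In these 3 and in Rps13-ps1 (73 and 207, against 64 and 193 for Rps13) the copy exceeded the parent in both libraries. Rpl21-ps15 (76 and 171, against 20 and 53) and Rpl17-ps5 (55 and 131, against 3 and 8) did so by wider margins.

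In other pairs named by symbol the parent had more reads in both libraries, while Rpl35a-ps2 had 5 reads in replicate 1 and 69 in replicate 2, against 23 and 68 for Rpl35a. Rpl15-ps3 had 68 reads in replicate 1 and 186 in replicate 2, against 93 and 230 for Rpl15. Rpl34-ps1 had 49 and 171 reads, against 109 and 397 for Rpl34. Mrpl23-ps1 had 66 and 143 reads, against 89 and 266 for Mrpl23, which encodes a mitochondrial ribosomal protein. The shares of the first 2 moved little between the libraries (42.2% and 44.7%, and 31.0% and 30.1%), while that of Mrpl23-ps1 was 42.6% and 35.0%. Pdcd5-ps, a copy of an apoptosis-associated gene, had 23 and 86 reads, against 82 and 349 for Pdcd5. Its share was 21.9% and 19.8%, and that of Rpl19-ps11 was 17.1% and 23.2%.

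Copies of mitochondrial energy genes numbered 9, from 8 parents, with 877 reads in replicate 1 and 3430 in replicate 2. Gm12338, the copy of the cytochrome c oxidase subunit gene Cox7c, had 363 and 1680 reads, against 907 and 3593 for Cox7c. Gm10231 and Gm10175, copies of the ATP synthase c-subunit gene Atp5g2, had 120 and 547 reads and 127 and 479 reads, against 166 and 684 for Atp5g2. Outside the list but also mitochondrial, Gm14539, the copy of the ATP synthase membrane component gene Usmg5, had 271 and 1152 reads, against 685 and 3246 for Usmg5. Mpc1-ps, the copy of the pyruvate carrier gene Mpc1, had 265 and 728 reads, against 338 and 795 for Mpc1.

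Gm12338 (chr11:75599763-75599954, minus strand) and Gm14539 (chrX:20581141-20581314, minus strand) are printed whole, because no base in either model separates the copy from the coding sequence of its parent. All letters are lower case since none differs. Gm12338 includes the stop codon and Gm14539 ends before it.
Gm12338: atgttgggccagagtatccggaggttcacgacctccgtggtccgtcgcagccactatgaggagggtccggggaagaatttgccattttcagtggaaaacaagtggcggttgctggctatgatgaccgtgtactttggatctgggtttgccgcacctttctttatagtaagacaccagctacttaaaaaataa
Gm14539: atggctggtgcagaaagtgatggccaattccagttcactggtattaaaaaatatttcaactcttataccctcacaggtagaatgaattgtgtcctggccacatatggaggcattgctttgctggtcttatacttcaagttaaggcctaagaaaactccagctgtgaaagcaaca

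Among the 165, 30 pseudogenes had the letters of the whole coding sequence of the parent, with or without the stop codon, and 41 were found letter for letter in a transcript of the parent. The other lists were small. Gm15459, a copy of the constitutive chaperone gene Hspa8, had 849 and 961 reads, against 993 and 1056 for Hspa8, and Gm10123, a copy of the cyclophilin A gene Ppia, had 124 and 309, against 138 and 291 for Ppia. The ubiquitin and proteasome list held 6 copies with 108 and 173 reads, the translation list 3, and the high mobility group list and the iron and polyamine list 1 each. Of those 6, the 2 copies of Rps27a (21 and 106 reads together) are also counted in the ribosomal protein list. No copy of a listed cytoskeleton gene (Actb, Actg1 and the tubulins among them) reached 10 reads, and 61 pseudogenes belonged to no list.

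The share of a pair's reads that lay on the pseudogene was compared between the libraries. Over the 56 pairs named by symbol the median share was 17.5% in replicate 1 and 20.3% in replicate 2 (18.9% ± 1.95, SD of the medians, n = 2). Over the 165 pairs found by sequence it was 16.9% and 18.3%, and 131 pairs moved by at most 10 percentage points. The share was under 10% for 74 pairs in replicate 1 and for 62 in replicate 2. A pair under 10% in both libraries cannot move by more, so the count of 131 says little about such pairs. The shares of the 2 libraries had a Pearson correlation of 0.91 and a Spearman correlation of 0.84 across the 165 pairs, given as a description, since pairs with the same parent share its reads. The copy exceeded 50% of the pair's reads in both libraries in 21 pairs, 5 of them with Gapdh and 15 with ribosomal protein genes. The remaining pair was BC023105 and Gm4841, with 1 and 19 reads, against 0 and 1.

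The median share was 25.3% in replicate 1 and 24.0% in replicate 2 for 46 identical pairs, 12.6% and 15.9% for 94 pairs with 99% to under 100% identity, and 5.17% and 6.64% for 25 pairs under 99%. The Gapdh copies with most reads had shares that differed between the libraries: Gm12671 held 97.8% of pair reads in replicate 1 (97.1% to 98.3%) and 89.1% in replicate 2 (87.0% to 90.9%), and the intervals of Gm5559 and Gm12033 also stood apart, while those of Gm7336 overlapped. Among other well-read copies, chosen after their values were seen, Atp5g2 copies held 59.8% and 60% of reads, Gm15500 38.9% and 39.9%, Gm15459 46.1% and 47.6%, and Gm12338 28.6% and 31.9%. The intervals of the libraries overlapped for the copies of Atp5g2, Gm15500, Gm15459 and Gm12338, and least for Gm12338 (26.1% to 31.2% in replicate 1 and 30.6% to 33.1% in replicate 2). Among the 36 symbol pairs with fewest reads, which had 10 to 73 pseudogene reads, the share ran between 0% and 76.9% in replicate 1 and between 0% and 74.2% in replicate 2.

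**Figure D4:**
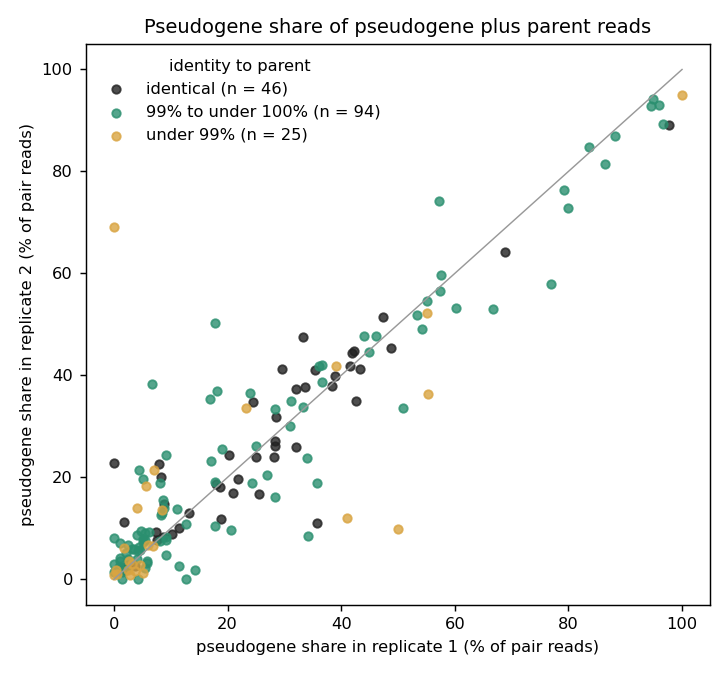
Share of pseudogene plus parent reads that lay on the pseudogene, in replicate 1 (horizontal axis, %) and replicate 2 (vertical axis, %), for 165 pairs found by sequence, coloured by identity; the line marks equal shares. Most points follow the line, with a Pearson correlation of 0.91. Gm6829, kept among the 165 although nearly all its reads lay outside the annotated copy, stands at 0% and 69.0%.

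The 2 libraries were then compared gene by gene with a two-sided Fisher exact test of each gene's reads against all other gene reads, with Benjamini-Hochberg adjustment over the 8692 genes. The test compares these libraries and not conditions, and it covers counting error without the spread between animals. Of the 171 pseudogenes, 94 were lower in replicate 1, 17 were higher and 60 did not pass. Over all genes tested 43.3% passed, 26.3% higher and 17.0% lower in replicate 1. The median log2 ratio of replicate 1 over replicate 2 was -1.11 for the pseudogenes and 0.27 for all genes tested. TMM scaling moved all ratios by -0.29, so that 11 pseudogenes were higher and 107 lower, and over all genes 18.4% were higher and 22.5% lower.

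Short coding genes moved the same way as the pseudogenes. Of 752 protein-coding genes whose main annotated transcript had 1000 bases or less, 63.2% were lower in replicate 1 and the median log2 ratio was -0.99. Of 125 parents tested, 92 were lower and 10 higher, with a median of -1.01. By model length, the median log2 ratio of pseudogenes was -1.37 for 81 of 500 bases or less, -0.90 for 62 above that and up to 1000 bases, and -0.17 for 25 above 1000 and up to 2000 bases. Protein-coding genes in the same length classes had medians of -1.35 (90 genes), -0.97 (662 genes) and -0.22 (1996 genes), and 0.78 above 2000 bases (5086 genes). Transcript length and the ratio between the libraries moved together, and the part of length in them was not tested. Summed marker levels also moved with the libraries: fibroblast, muscle and endothelial markers were higher in replicate 1, and Schwann cell and blood and immune markers were lower. Their part was not tested.

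By family, 54 of the 76 ribosomal protein copies were lower in replicate 1, 0 were higher and 22 did not pass, with a median log2 ratio of -1.23. Of the 9 mitochondrial energy copies, 7 were lower and 2 higher. Of the 14 Gapdh copies, 4 were lower and 4 higher. For comparison, lower in replicate 1 were 17.0% of all genes tested, 73.6% of the parents and 63.2% of the short coding genes. Higher were 26.3%, 8% and 3.59% of them. Leaving out the Gapdh copies left 90 pseudogenes lower and 13 higher. Across the 171, log2(CPM + 1) in the libraries had a Pearson correlation of 0.78 and a Spearman correlation of 0.73, against 0.82 and 0.78 over all genes tested.

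**Figure D5:**
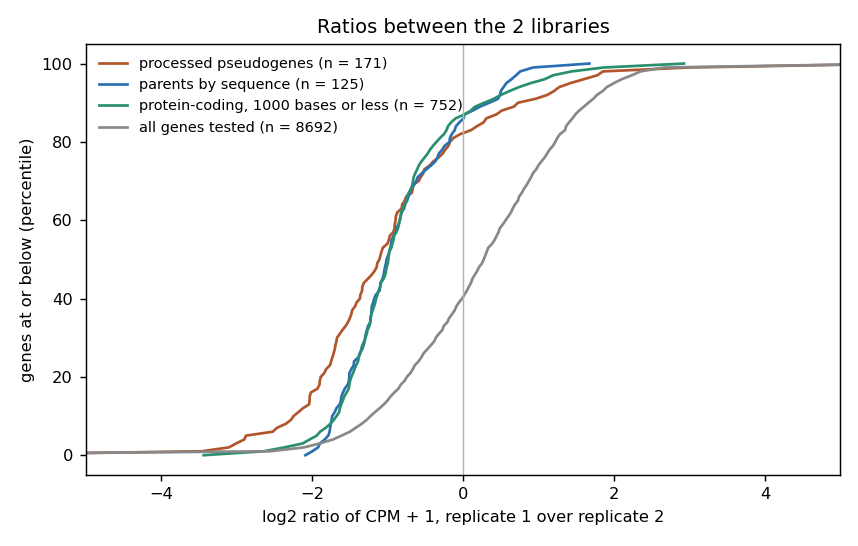
Cumulative distribution (vertical axis, percentile of genes) of the log2 ratio of CPM + 1, replicate 1 over replicate 2 (horizontal axis), for the processed pseudogenes, their parents, short protein-coding genes and all genes tested. The medians are -1.11, -1.01, -0.99 and 0.27, and the first 3 curves lie close together in the middle. The pseudogene curve is wider at both ends. Its 10th percentile is -2.24, against -1.73 and -1.67, and its 90th is 0.73, against 0.35 and 0.28.

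In 164 pairs the parent was tested too. Pseudogene and parent passed in the same direction in 86 pairs and in opposite directions in 9, while the pseudogene alone passed in 13, the parent alone in 40, and neither in 16. Taken singly, 73.6% of the 125 parents tested and 55.0% of the 171 pseudogenes were lower in replicate 1. Agreement within pairs was not separated from this common shift. The log2 ratios of the pair lay within 1 of each other in 120 pairs. Across pairs they had a Pearson correlation of 0.42 and a Spearman correlation of 0.44, as a description. Gm12671 and Gapdh were such an opposite pair: the copy was higher in replicate 1 (log2 ratio 1.72, adjusted p = 1.92e-234 by Fisher's exact test) and Gapdh lower (log2 ratio -0.70, adjusted p = 0.00744). Over the alternatives the adjusted p of Gm12671 ran from 6.17e-264 to 0.565, the highest under edgeR's exact test with an assumed coefficient of variation of 0.4, where the call ended. Gm12033, Gm10359 and Gm12537 were also higher against the lower Gapdh, although Gm12537, with 9 and 2 reads, did not pass under TMM or DESeq2 scaling (adjusted p = 0.0785 and 0.0813, Fisher's exact test). The adjusted p-values rest on counting error alone and do not carry over to other animals.

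A few pseudogenes were seen almost only in 1 library. Vcp-rs is a copy of Vcp, the gene of an ATPase that extracts ubiquitinated proteins. It had 71 reads in replicate 1 and 0 in replicate 2, against 491 and 195 for Vcp. The level of Vcp-rs in replicate 1 was 30.2-fold the 3-count limit of replicate 2, leaving out the counting error of the 71 reads. Its model differs from Vcp by 8 substitutions and a gap of 15 bases. Oaz1-ps, a copy of the gene of ornithine decarboxylase antizyme, had 66 reads in replicate 1 and 1 in replicate 2, against 1460 and 3017 for Oaz1, which was lower in replicate 1 (log2 ratio -0.70). Its log2 ratio was 5.07 (adjusted p = 2.42e-21, Fisher's exact test). These copies were the ones with the highest log2 ratios among those with 20 or more reads.

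In the other direction, Gm6563, a copy of the RNA export factor gene Sarnp with the single substitution G288A, had 4 reads in replicate 1 and 105 in replicate 2, against 56 and 169 for Sarnp. Its share of the pair was 6.67% in replicate 1 (interval 1.85% to 16.2%) and 38.3% in replicate 2 (32.5% to 44.4%), which do not overlap. Rpl35a-ps2 had 5 and 69 reads, and Rps3a2, a copy of Rps3a1, had 10 and 104, against 187 and 423 for Rps3a1. Gm6829, with its reads outside the annotated copy, had 0 and 185 and was at least 48.4-fold lower in replicate 1. The reference build is of C57BL/6J, and whether alleles of CAST/EiJ shift reads between a copy and its parent was not tested.

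Other copies went against their parent. Gm10774, a copy of the RNA polymerase subunit gene Polr2l, had 113 reads in replicate 1 and 87 in replicate 2, against 217 and 942 for Polr2l. Its share of the pair was 34.2% (29.1% to 39.6%) and 8.45% (6.83% to 10.3%), so the intervals stand apart. The copy's higher level in replicate 1 did not pass under TMM or DESeq2 scaling, and its adjusted p ran from 0.000222 to 0.814 over the alternatives (Fisher's exact and edgeR exact tests). It overlaps an exon of Usp50 on the same strand, and reads of both cannot be told apart there. Gm6969, a copy of the respiratory supercomplex factor gene Cox7a2l, had 57 and 20 reads, against 82 and 145 for Cox7a2l. Gm10039 had 17 and 5 reads, against 1248 and 4327 for its parent Atp5g1, so that its share was 1.34% and 0.115%. Gm1821 had 7 and 46 reads, against 2227 and 2613 for Ubb, whose log2 ratio of 0.12 is smaller than the shift of -0.29 under TMM scaling.

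The other pseudogenes with large ratios past the threshold and 20 or more reads had few reads. Gm15432 had 21 reads in replicate 1 and 5 in replicate 2, against 21 and 46 for 1810037I17Rik. Gm7389, a copy of the tRNA exporter gene Xpot with 95.6% identity, had 21 and 8 reads, against 17 and 14 for Xpot. Gm15801, a copy of the phosphatase gene Ptp4a1, had 38 and 19 reads, against 144 and 93 for Ptp4a1. The parents of the first 2 did not pass the test. Lower in replicate 1 were Nudc-ps1 (6 and 44 reads, against 99 and 197 for Nudc), Gm9794 (5 and 42, against 120 and 446 for Rpl23) and Gm10288 (3 and 29, against 120 and 402 for Rpl11). Gm8186, a copy of the spliceosomal gene Snrpg, had 2 and 22 reads, against 23 and 75 for Snrpg, and Gm2962, a copy of the respiratory complex III gene Uqcrb, had 3 and 27, against 619 and 2424 for Uqcrb. In these 5 pairs the parent was also lower in replicate 1.

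The neighbourhood of the copies was recorded because a read can also start in a host gene. Of the 171 pseudogenes, 26 (15.2%) lay over another gene on the same strand, 5 of them over an exon, against 11.6% of the other annotated processed pseudogenes. Chromosome X held 18 of the 171 (10.5%), against 9.25% of the others. These shares lie close to those of the annotation as a whole and are given as a description.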

How the data were processed

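The deposited tables give whole read counts per transcript model and library, made by the authors with TALON on mm10 with GENCODE M21, per the file headers; the sources used here name neither the aligner nor how reads with several possible places were assigned. The deposited annotations give exons and classes of each model. Every class of model entered the sum per gene, spike-ins were left out, and sums were scaled to CPM. Models of annotated processed pseudogenes were aligned to protein-coding transcripts with blastn 2.17.0 (e-value limit 1e-10, plus strand), and the transcript of highest bit score gave the parent. Libraries were compared by Fisher's exact test (SciPy 1.17.1) with Benjamini-Hochberg adjustment over 8692 genes, a threshold of 0.05, and log2 ratios of CPM with a pseudocount of 1. The test was tried on data simulated with counting error alone, so the trial does not cover the spread between animals. edgeR 4.0.16 and DESeq2 1.42.0 gave alternatives. The replicates are 1 group, so no condition was tested, and p-values measure counting error between these libraries.

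Named pseudogenes are the 20 with the highest mean CPM, those with a parent in the symbol, the 10 highest and 10 lowest log2 ratios among those that passed and had at least 20 reads, and the 5 with most multi-exon reads; not all are printed. The pairs with opposite directions, the copies with identical models and the Gapdh copies were chosen after their values were seen. The pseudogenes, lists and tests were chosen with earlier results of these data known.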

Additional observations from a re-analysis of the deposited data

How the results depend on the processing

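The number of pseudogenes was 171, and 232 or 130 with a minimum of 5 or 20 reads. With TMM and with DESeq2 scaling 11 pseudogenes were higher in replicate 1 in place of 17. Under edgeR's exact test with an assumed coefficient of variation of 0.2, 53 passed (5 higher and 48 lower), and at 0.4 only 3 did (2 higher and 1 lower); this assumed spread is larger than counting error by construction. With annotated models only, the share of gene reads on pseudogenes was 1.83%, the median pair share 21.7% and Gapdh-ps15 over Gapdh 0.712 in place of 0.376; the share of gene reads was 0.811% without the Gapdh copies. The median pair share was 20.9% without incomplete and genomic models and 17.6% with parents by sequence; from that value it was 15.1% with copies summed per parent and 15.4% without Gapdh. It was 9.70% for symbol pairs with 100 or more reads in each library. All 14 Gapdh copies over Gapdh gave 86.0. The correlation of levels was 0.687 and 0.858 with pseudocounts of 0.1 and 10. Of single pseudogenes, Gm5559 turned to a log2 ratio of -0.19 under TMM and -0.22 under DESeq2 scaling, and Gm15459 to -0.12, -0.15 and, without incomplete and genomic models, -0.019; the cause was not tested. Of 770 other values of 66 named pseudogenes, 662 were counted as unchanged, which includes a changed sign where neither value passed. Of the rest, 93 lost the call, 10 gained it and 5 reversed. Values under other pseudocounts, with a limit on reads in the span or without the Gapdh copies reuse the main test. They could not change direction or call, so the count of 662 says little about them. Leaving out a library gave the other library's value: 1.06% to 1.47% of gene reads, 98.6% to 99.6% on annotated models, 98.5% to 99.4% on single-exon models, 99.2% to 100% in the span, a pair share of 17.5% to 20.3%, and a ratio of 0.204 to 0.549 for Gapdh-ps15. Parents from full gene names were not run, since no table used here gives such names. No paired analysis was possible because there is 1 group.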
